A study of Homo sapiens with 12 samples.

Results

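PC9 is a human lung adenocarcinoma cell line whose growth depends on a mutant epidermal growth factor receptor (EGFR). The experiment described here is the response to erlotinib, an inhibitor of the EGFR kinase, of a stable PC9 line made to express the precursor of the microRNA miR-371 (the pre-miR-371 line). Its members are 6 of the 12 arrays of the series, taken by their labels, namely 3 arrays of pre-miR-371 cells in 2 μM erlotinib and 3 arrays of the same line in the solvent DMSO. The other 6 arrays are of a PC9 line that carries a GFP vector, 3 in DMSO and 3 in erlotinib, and enter the estimate of the spread and the comparison of the responses of the lines. Cells of all 4 groups were treated for 24 h, and RNA was read on Affymetrix Hgu133plus2 arrays. There was 1 stable line of each kind, and p-values measure the spread between these arrays. The study's methods describe its replicates in general as biological, from independent experiments, while the labels do not say so of the single arrays. The mature miR-371 is not among the genes tested on the arrays. The study measured it in this line by quantitative PCR, which was not analysed here.

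EGFR passes its signal through the RAS, RAF, MEK and ERK kinases and through PI3K and AKT. ERK drives immediate early transcription factors, cyclin D, MYC and the genes of its own inhibitors, while AKT keeps the FOXO transcription factors out of the nucleus. In cells that depend on mutant EGFR, block of the kinase is known to stop proliferation and to kill many of the cells, and the rare cells that survive are called drug-tolerant. The pre-miR-371 line is of interest in that setting because a precursor hairpin gives a mature microRNA from each of its arms, and a microRNA lowers transcripts that pair with its seed, bases 2 to 8.

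The 2 mature human miR-371a sequences are shown because they define what was added to this line. They are from RefSeq (GRCh38.p14), lie on the plus strand of chromosome 19 at chr19:53787680-53787699 (5p) and chr19:53787716-53787738 (3p), and have the seed in capitals.
hsa-miR-371a-5p: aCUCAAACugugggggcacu
hsa-miR-371a-3p: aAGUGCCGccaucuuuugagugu
None of the other mature human microRNAs among the 2370 listed has the same 7-base seed as either arm. Bases 2 to 7 of the 3p arm are shared by 4 others (hsa-miR-33b-3p, hsa-miR-371b-3p, hsa-miR-515-3p and hsa-miR-519e-3p).

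All values are log2 expression values, normalized between arrays by the authors, with 1 probe set used per gene. Array medians were 4.31 to 4.41, and the mean correlation between arrays within each group was 0.997 to 0.998. Fold changes are erlotinib minus DMSO on the log2 scale, given as value ± standard error from limma with n = 3 arrays per group, and a gene is said to have risen or fallen when its Benjamini-Hochberg adjusted p over all 19775 genes was under 0.05 and its fold over 1.5. For each of the genes whose 6 array values are written out, the DMSO and erlotinib arrays did not overlap, which held for 55.8% of all genes. For the 15 largest rises and the 15 largest falls this was a condition of their choice and is not a result. The epithelial markers EPCAM, CDH1, KRT8 and KRT18 had mean values of 12.89, 10.85, 12.34 and 13.63 in DMSO. Of 10 fibroblast markers, 1 had a mean of 6 or more (COL1A1, 7.07 to 7.04) and none rose or fell, although a dimmer probe set of COL1A1 rose (1.46). Of 7 leukocyte markers, none had a mean of 6 or more and PTPRC, which defines leukocytes, was at 2.86 in DMSO and 2.78 in erlotinib.

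Erlotinib changed 4328 genes in the pre-miR-371 line (21.9% of those tested). Of these, 2483 rose (12.6%) and 1845 fell (9.33%), shares that serve as background for the list counts below. Rises made up 57.4% of the changes. This split depends on the scaling. With each array centred on its median, 1773 genes rose and 2789 fell (38.9% rises). The median log2 fold change over all genes was -0.0322 in the main fit and -0.2231 after this centring, so the centring brought in that shift. With quantile normalization repeated, 2322 rose and 1984 fell (53.9% rises), at a median of -0.0473. With all probe sets of a gene averaged, rises were 55.2%. Which scaling is nearer the true split was not tested. The arrays of the groups did not overlap for 11025 genes (55.8%), and for 4326 of the 4328 changed genes. A fold over 4 was reached by 248 rising and 107 falling genes, and a fold over 16 by 20 and 10. Genes that fell were already well above the median gene in DMSO, with a median value of 8.80 against 5.73 over all genes, and 7.26% of them were under 6. Of the genes that rose, 40.2% were under 6 in DMSO, and 16 went from under 5 to at least 8, whereas 7 made the opposite move (HSD3B1, DUSP6, IL1RL1, FOSL1, COL13A1, ETV5 and HAS3). The deposited values carry no detection calls, so whether a value near the lower end is signal or background is not known, and a change from or to such a value may be understated. Arrays read RNA pooled over all cells, so fewer cells with a transcript and less transcript per cell cannot be told apart.

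**Figure D1:**
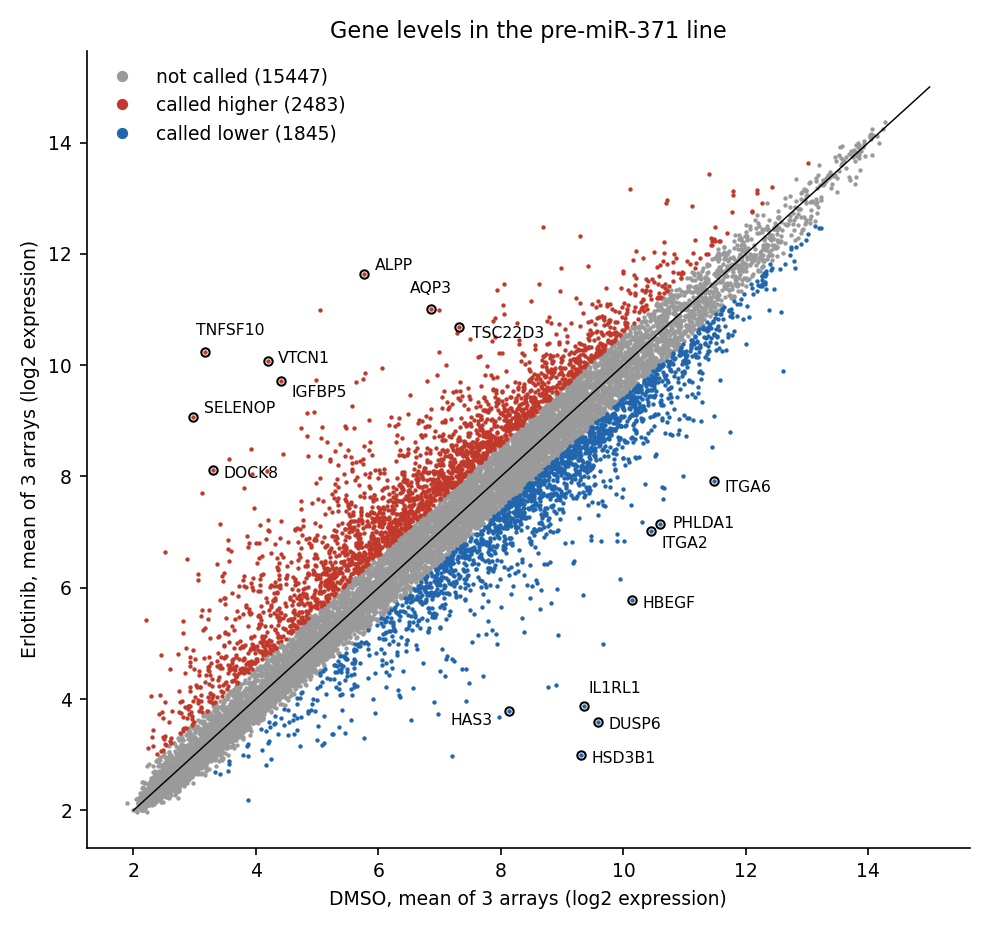
Mean log2 expression of each of the 19775 genes in DMSO (horizontal) and in erlotinib (vertical), 3 arrays each, in the pre-miR-371 line. The diagonal marks no change; red and blue points are the 2483 genes that rose and the 1845 that fell, and 16 of the genes described in the text are circled.

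The 15 genes with the largest rises, of those with a mean of at least 6 under the drug, covered varied functions. SELENOP, which encodes a secreted selenium carrier, measured 2.91, 3.04 and 2.98 in DMSO and 8.96, 9.04 and 9.22 in erlotinib. Its arrays lay far apart between the treatments (log2 6.09 ± 0.13, adjusted p = 1.22e-11), with the DMSO values near the lower end of the scale. VTCN1, a B7 family ligand that restrains T cells, measured 4.54, 4.12 and 3.91 in DMSO and 9.96, 10.15 and 10.11 in erlotinib and rose by 5.88 ± 0.14, adjusted p = 2.08e-11. ALPP, placental alkaline phosphatase, measured 5.83, 5.7 and 5.78 in DMSO and 11.74, 11.6 and 11.57 in erlotinib and rose by 5.87 ± 0.079, adjusted p = 7.4e-13. Its paralog ALPG is nearly identical in sequence, so the share of each in the signal is uncertain. IGFBP5, a secreted binder of insulin-like growth factors, measured 4.47, 4.49 and 4.25 in DMSO and 9.7, 9.74 and 9.74 in erlotinib and rose by 5.32 ± 0.11, adjusted p = 1.22e-11, and 4 of its 5 other probe sets also rose. The 16 genes that went from under 5 to at least 8 further included DOCK8 (4.83), GABRP (4.77), ARID5B (4.75), LDB3 (4.57), DEPP1 (4.31) and CYP4F3 (4.21), which encode an activator of the small GTPase CDC42, a GABA receptor subunit, a DNA-binding protein, a protein of the muscle Z-disc, a FOXO target and a cytochrome P450 that acts on leukotriene B4. AQP3, a water and glycerol channel of airway epithelium, measured 6.89, 6.81 and 6.86 in DMSO and 11.1, 10.93 and 10.99 in erlotinib and rose by 4.15 ± 0.066, while its other probe sets rose by 1.7 and 2.01. TMT1A, a thiol methyltransferase, and PALMD rose by 4.57 and 4.13, and the set of 15 was completed by SOX2 (5.95) and TNFSF10 (7.08), the latter taken up with the death genes. Other probe sets of ARID5B (0.02 to 0.43) and TMT1A (0.02 to 0.41) did not pass. Another of LDB3 rose (2.85) and the rest did not pass. All of these had means under 6. The other probe set of DEPP1, at a mean of 6.24, rose by only 0.95.

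The 15 genes with the largest falls included targets of ERK, receptors of the interleukin 1 family and genes of matrix and adhesion. IL1RL1, the receptor for interleukin 33, measured 9.38, 9.37 and 9.34 in DMSO and 4.22, 3.63 and 3.79 in erlotinib, a fall to near the lower end of the scale (-5.48 ± 0.12, adjusted p = 1.29e-11). IL1R2, a decoy receptor for interleukin 1, measured 8.03, 8.02 and 7.85 in DMSO and 3.48, 4.19 and 3.36 in erlotinib (-4.29 ± 0.18, adjusted p = 1.64e-09). Both were high in DMSO only, while IL1R1, the signalling receptor for interleukin 1, had a fold change of -0.06 and did not pass. COL13A1, a transmembrane collagen, measured 9.0, 8.95 and 8.78 in DMSO and 4.27, 4.58 and 3.91 in erlotinib (-4.65 ± 0.14, adjusted p = 1.28e-10). HAS3, a hyaluronan synthase, measured 8.24, 8.03 and 8.11 in DMSO and 3.78, 3.93 and 3.66 in erlotinib (-4.34 ± 0.13, adjusted p = 1.38e-10). G0S2, an inhibitor of the lipase that opens lipid droplets, fell by 3.47 on the log2 scale, and TLR4, the lipopolysaccharide receptor, fell by 3.47. LINC01127, a long noncoding RNA, fell from a mean of 7.21 to 2.98.

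**Figure D2:**
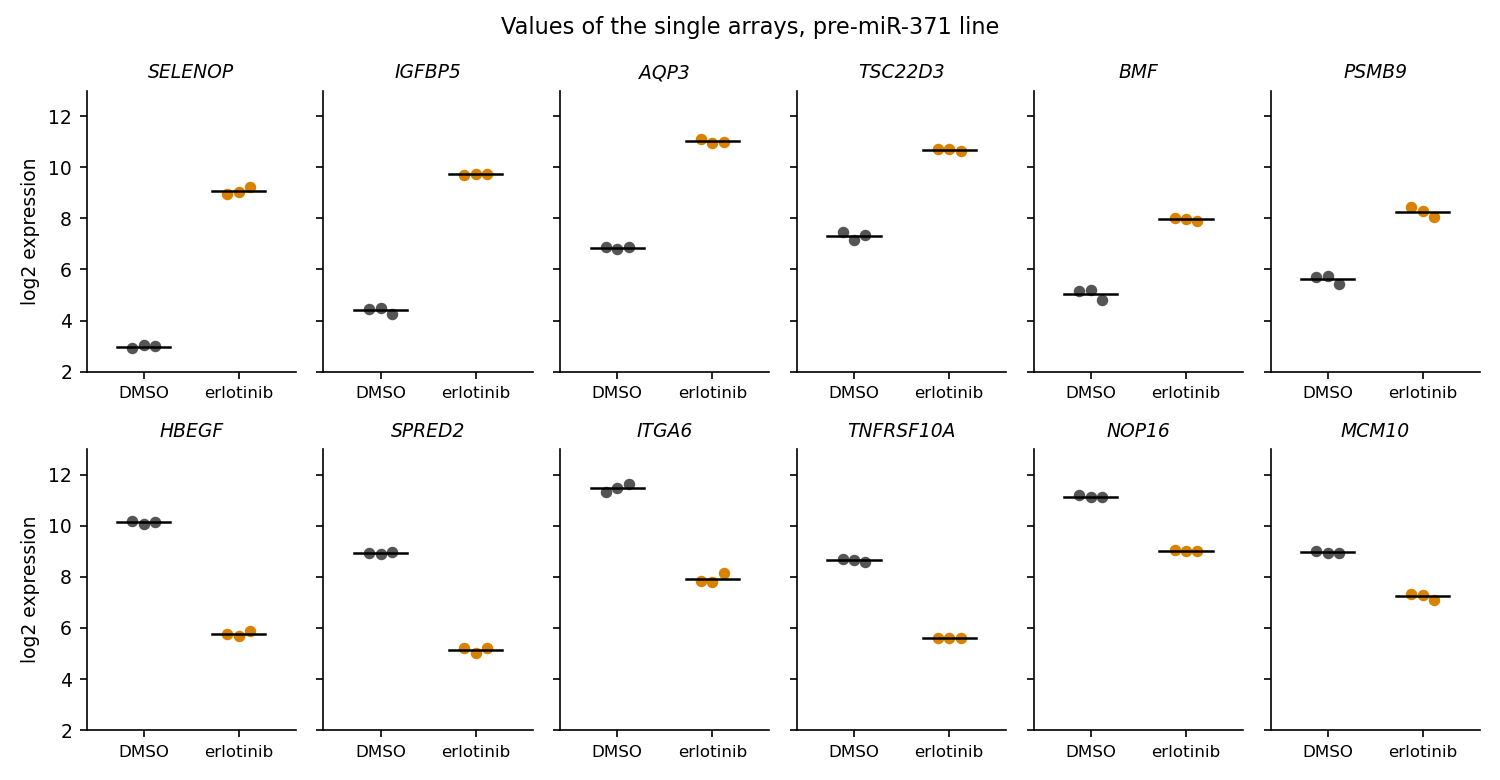
Log2 expression (vertical, 2 to 13) of 12 genes on each of the 6 pre-miR-371 arrays, 3 in DMSO (grey) and 3 in erlotinib (orange), with group means as bars. The 6 genes of the upper row rose and the 6 of the lower row fell, and in none do the groups overlap. For those among the largest rises and falls, this was a condition of choice.

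Of 18 genes of ERK feedback, mostly phosphatases and inhibitors that ERK induces against itself, 12 fell and 1 rose, and the median over the list was -2.51 against -0.0322 over all genes. SPRED2, which keeps RAF from being activated by RAS, measured 8.94, 8.88 and 8.96 in DMSO and 5.22, 5.03 and 5.21 in erlotinib (-3.77 ± 0.13, adjusted p = 2.7e-10). PHLDA1 (-3.44), SPRED1 (-3.29), DUSP4 (-3.11) and IER3 (-2.98) also fell, of which DUSP4 is a phosphatase of ERK in the nucleus. DUSP10, a phosphatase of JNK and p38 rather than of ERK, was the member that rose (1.28 ± 0.066, adjusted p = 1e-08). DUSP1, DUSP8, DUSP16 and SPRED3 had values of 0.34, 0.08, -0.04 and 0.02 and did not pass.

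Among 15 immediate early factors of the AP-1 and EGR kind, 6 fell and 2 rose (median -0.37). EGR1, a zinc finger factor induced by ERK, measured 7.61, 7.52 and 7.33 in DMSO and 4.26, 4.34 and 4.24 in erlotinib (-3.2 ± 0.10, adjusted p = 1.77e-10). FOS and EGR3 fell as well (-2.36 and -1.91). Not all AP-1 subunits moved that way, since FOSL2 (0.66 ± 0.052, adjusted p = 3.98e-07) and JUND (1.31 ± 0.061, adjusted p = 4.05e-09) rose, and JUN had a value of -0.52 that did not pass the fold limit, although its 3 other probe sets fell (-0.66, -0.74 and -0.66). The rises of FOSL2 and JUND did not pass when all probe sets of a gene were averaged (0.53 and 0.32), whereas JUN then passed as lower (-0.65), as it did with arrays centred on their medians (-0.71). Of 17 ETS factors, 4 fell and 3 rose. ETV4 and ETS1, activators downstream of ERK, fell (-1.65 and -1.25), and ELF3, an epithelial ETS factor, rose from 7.29 to 10.57 (3.28 ± 0.068, adjusted p = 1.07e-11). With arrays centred on their medians, 7 ETS factors fell.

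The receptor family itself moved in both directions, with 4 of 13 members higher and 5 lower (2 higher where all probe sets of a gene were averaged). HBEGF, a ligand of EGFR, measured 10.18, 10.07 and 10.16 in DMSO and 5.77, 5.7 and 5.87 in erlotinib, and the groups lay far apart (-4.36 ± 0.079, adjusted p = 4.15e-12). The ligands EREG (-1.75) and TGFA (-1.34), the EGFR inhibitor ERRFI1 (-2.12) and EGFR (-0.95) also fell. The call of EGFR was lost with its probe sets averaged (-0.44), as 2 bright ones fell (-0.77 and -1.08) and the other 6 did not pass. ERBB3, the partner that carries the docking sites for PI3K, measured 7.83, 7.96 and 7.82 in DMSO and 9.76, 9.78 and 9.75 in erlotinib and rose (1.89 ± 0.064, adjusted p = 2.84e-10). ERBB2, the shared partner of the family, rose by 1.34 ± 0.092, a value of 0.50 when its dim probe sets were averaged in. Of 21 other receptor tyrosine kinases, among them known bypasses of EGFR, 2 rose and 6 fell, the latter including EPHA2 (-2.32), MET (-2.0) and AXL (-1.32). Rises were 9.52% of this list and falls 28.6%, beside 12.6% and 9.33% of all genes. FGFR1 rose by 0.74 ± 0.086, which did not pass with arrays centred on their medians (0.55).

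MYC, the ERK-stabilised driver of growth genes, fell from 11.12 to 9.48 (-1.64 ± 0.056, adjusted p = 3.46e-10). Ribosome biogenesis, the assembly line of ribosomes in the nucleolus, was among the lists with the most uniform falls, as 21 of 24 genes fell and none rose (median -1.01), against 9.33% of all genes falling. NOP16, a nucleolar protein, measured 11.19, 11.12 and 11.1 in DMSO and 9.03, 9.01 and 9.02 in erlotinib (-2.12 ± 0.056, adjusted p = 4.4e-11). POLR1B, the second largest subunit of RNA polymerase I, fell by 1.66, and BYSL (-1.57), RRP9 (-1.5), NOP2 (-1.42) and DDX21 (-1.39) fell as well. NPM1, the abundant nucleolar chaperone, had a value of -0.32, NHP2 of -0.18 and POLR1A of -0.57, none past the fold limit, which POLR1A passed in 4 of the alternative settings and with another probe set (-0.66).

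The E-box CACGTG, the letters that MYC and its partner MAX are known to bind, was found in 9 of the 21 promoters held for these genes (42.9%), against 8.9% of the 15384 promoters of tested genes. Among changed members it was in 9 of 18. A promoter here is the stretch from 250 bases before to 50 after the gene start in RefSeq (GRCh38.p14), and both strands were read. The promoter of RRP9, a component of the box C/D particle that modifies ribosomal RNA, is shown as an example with the E-box in capitals at position -5, counted from 0 at the gene start (chr3:51941855-51942154, minus strand).
RRP9: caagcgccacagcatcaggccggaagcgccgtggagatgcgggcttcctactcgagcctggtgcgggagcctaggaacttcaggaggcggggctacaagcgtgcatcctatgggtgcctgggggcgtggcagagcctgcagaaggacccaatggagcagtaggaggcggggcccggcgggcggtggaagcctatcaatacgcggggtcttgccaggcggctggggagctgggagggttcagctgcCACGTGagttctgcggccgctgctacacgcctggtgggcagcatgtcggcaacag
A match describes these letters only and is not a measured binding site. The lists were drawn up by known function, so shares of matches describe the lists and not the response. In promoters of the ERK feedback genes, the ETS letters CCGGAAGT were found in 0 of 15, against 6.25%, and the AP-1 letters TGANTCA in 1 of 15 (6.67%), against 5.84%. The FOXO letters TGTTTAC were found in 3 of 22 promoters of the FOXO list (13.6%), against 2.62%.

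Of 28 genes that govern G1 and entry into S phase, 11 fell and 5 rose. CCNE1, the cyclin that starts S phase with CDK2, measured 9.69, 9.79 and 9.63 in DMSO and 7.47, 7.51 and 7.44 in erlotinib (-2.23 ± 0.066, adjusted p = 1.17e-10). CDC25A, the phosphatase that activates that complex, fell by 1.82 and CCND1, cyclin D1, fell by 1.39 on the log2 scale. The genes that rose were the CDK inhibitors CDKN1C (1.79), CDKN2B (1.46) and CDKN1B (1.03), the RB family member RBL2 (1.44) and MYB (1.37). The CDK inhibitor CDKN1A, a p53 target that ERK also induces, fell instead, from 8.23 to 7.33 (-0.9 ± 0.067, adjusted p = 2.19e-07). RB1 had a value of -0.01.

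All 26 changed genes among 35 of DNA replication fell (median -0.84). MCM10, which helps open the origin, measured 9.01, 8.94 and 8.94 in DMSO and 7.33, 7.29 and 7.09 in erlotinib (-1.72 ± 0.091, adjusted p = 1.23e-08). UHRF1 (-1.44), GINS2 (-1.42), RFC3 (-1.4) and ORC1 (-1.37) fell, and PCNA, the sliding clamp, had a value of -0.5 that did not pass the fold limit. In homologous recombination and the checkpoint, 7 of 19 fell, led by CHEK1 (-1.32), CLSPN (-1.24) and RAD54L (-1.12), and ATM, the kinase that senses double-strand breaks, rose by 0.65 ± 0.084, a rise that did not pass with arrays centred on their medians (0.46), with quantile normalization repeated (0.57) or with probe sets averaged (0.29). A dimmer probe set of CHEK1 rose (0.94) while the one used fell. Of 32 mitosis genes, 12 fell, 20 did not pass and none rose (median -0.45), and 21 fell with arrays centred on their medians. CDC20, the activator of the anaphase-promoting complex, fell (-0.97 ± 0.058), as did the mitotic kinase PLK1 (-0.94 ± 0.091). CDK1, which drives entry into mitosis, measured 11.88, 11.93 and 11.93 in DMSO and 11.59, 11.59 and 11.76 in erlotinib, a change of -0.26 that did not pass. Other bright probe sets of CDK1 had larger changes (-0.56 and -0.52) that did not pass the fold limit, and a dim one fell (-0.83). TOP2A had a value of -0.4.

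Promoters of these groups carried the letters known for their regulators more often than promoters at large. The lists were drawn up by known function, so these shares describe the lists and not the response to erlotinib. The E2F letters TTTGGCGC or TTTCCCGC were in 17 of 32 promoters of the replication genes (53.1%), against 2.99% of the 15384, and in 12 of the 23 of changed members. The cell cycle homology region TTTGAA was in 16 of 26 mitotic promoters (61.5%), against 11.9%, and in 4 of the 8 of changed members. CDC6, the loader of the replicative helicase, fell by 1.66, and its promoter has an E2F match at position 7 (chr17:40287629-40287928, plus strand). PLK1 has a cell cycle homology region at position -29 (chr16:23678639-23678938, plus strand). Both are shown with the match in capitals.
CDC6: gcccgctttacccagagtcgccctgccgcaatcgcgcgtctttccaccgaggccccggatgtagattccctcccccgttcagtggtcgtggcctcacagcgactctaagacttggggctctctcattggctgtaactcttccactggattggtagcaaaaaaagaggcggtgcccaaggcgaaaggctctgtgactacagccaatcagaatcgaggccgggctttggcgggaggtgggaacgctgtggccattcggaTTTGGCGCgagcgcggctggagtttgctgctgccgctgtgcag
PLK1: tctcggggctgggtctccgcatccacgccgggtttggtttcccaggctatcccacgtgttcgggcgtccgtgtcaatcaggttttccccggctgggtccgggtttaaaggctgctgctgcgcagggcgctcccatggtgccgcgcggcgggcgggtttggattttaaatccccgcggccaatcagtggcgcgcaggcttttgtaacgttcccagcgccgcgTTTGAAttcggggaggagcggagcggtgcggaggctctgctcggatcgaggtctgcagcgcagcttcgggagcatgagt

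Many of these cell cycle genes fell less than they did in GFP vector cells. The difference of the responses, pre-miR-371 minus GFP vector, was tested in the same limma model, and over all genes it was positive at an adjusted p under 0.05 for 1.44% and negative for 0.561%. It was positive for 25 of 35 replication genes, 17 of 32 mitosis genes, 11 of 19 recombination genes and 7 of 28 G1 genes, and negative for none of them. MCM10 fell by 1.72 here and by 2.5 in the GFP vector line, a difference of 0.77 ± 0.13, adjusted p = 0.0122. The mitotic genes KIF23, MKI67 and NDC80, chosen after their values were seen, had values of -0.69, -0.4 and 0.16 here and -1.38, -1.18 and -0.41 there. Over the replication list the median gene of the pre-miR-371 line differed from the GFP vector line by -0.117 in DMSO and by 0.363 in erlotinib, with 34 of 35 members higher than in GFP vector cells under the drug. Over mitosis the medians of these differences were 0.049 in DMSO and 0.464 in erlotinib, with all 32 members higher under the drug. Genes of a list share these arrays and are not independent of each other.

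**Figure D3:**
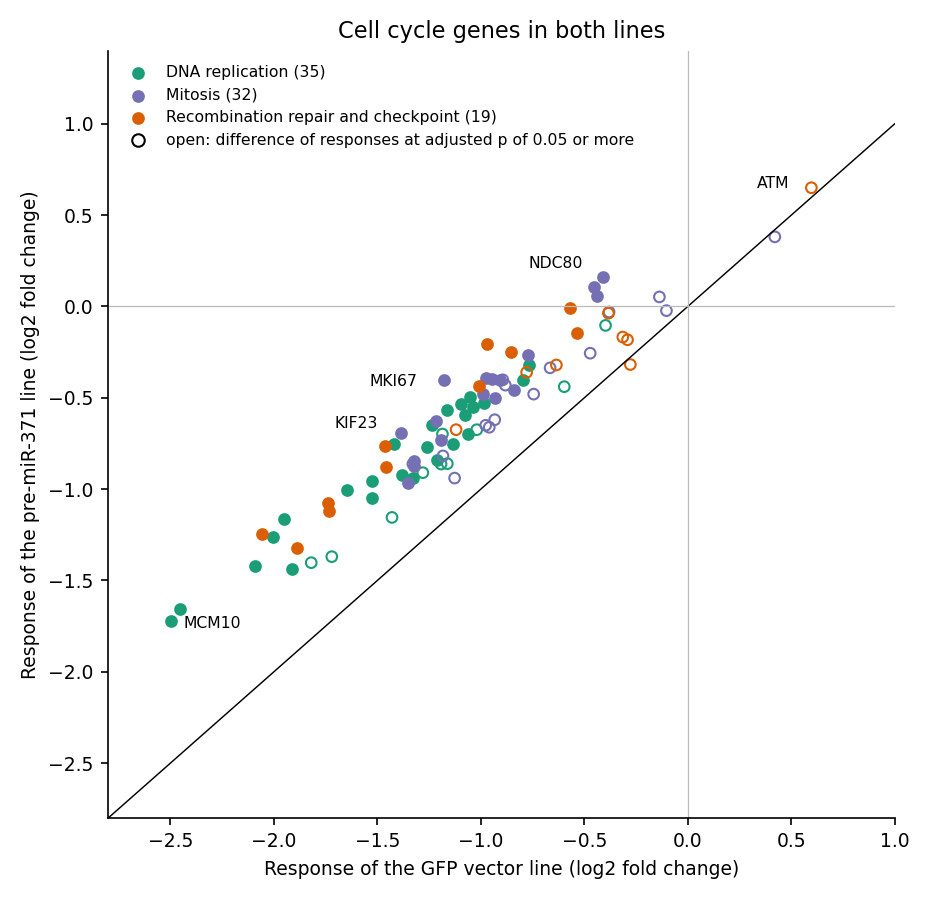
Response (log2 fold change, erlotinib minus DMSO) of 35 replication, 32 mitosis and 19 recombination and checkpoint genes in the GFP vector line (horizontal) and the pre-miR-371 line (vertical), each point 1 gene. The diagonal marks equal responses; filled points, 25, 17 and 11 genes of these lists, differ between the lines at an adjusted p under 0.05 and all lie above it.

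Of 23 FOXO factors, FOXO targets and genes of PI3K feedback, 12 rose and 5 fell (median 0.73). TSC22D3, a FOXO target also induced by glucocorticoids, measured 7.45, 7.15 and 7.35 in DMSO and 10.71, 10.69 and 10.65 in erlotinib (3.37 ± 0.077, adjusted p = 1.56e-11). PIK3IP1, which inhibits PI3K, PDK4, which closes pyruvate entry to mitochondria, and BCL6, a transcriptional repressor, rose by 3.1, 2.92 and 2.76. FOXO6 (2.64), FOXO1 (1.12) and FOXO4 (1.11) rose, and FOXO3 had a value of 0.45. The genes that fell were the adaptors IRS1 (-2.33) and IRS2 (-0.68), TRIB1, TRIB2 and KLF6. INSR, the insulin receptor, rose by 1.29 while IGF1R had a value of 0.08. Of 7 IGF binding proteins, IGFBP3 (3.04), IGFBP5 and IGFBP6 rose and IGFBP4 fell (-2.08).

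Of 9 BH3-only genes, which trigger death at mitochondria, 3 rose (33.3%, beside 12.6% of all genes) and 1 fell (11.1%, beside 9.33%). BMF, a BH3-only protein that binds the survival proteins of the BCL2 family, measured 5.14, 5.19 and 4.79 in DMSO and 8.03, 7.99 and 7.9 in erlotinib (2.93 ± 0.12, adjusted p = 1.22e-09). BCL2L11, which encodes BIM, rose from 8.03 to 9.28 (1.24 ± 0.08, adjusted p = 6.51e-08), with values from -0.25 to 1.37 over its 6 other probe sets. HRK, another BH3-only gene, rose by 1.31, BNIP3 fell by 1.31, and the other 5 of these 9 genes did not pass. With arrays centred on their medians 3 fell, as BID (-0.715) and BIK (-0.627) then passed. Of 8 survival and pore genes, BCL2L1, which encodes BCL-XL, fell (-1.38 ± 0.091, adjusted p = 8.79e-08) and BOK fell by 0.72. MCL1, the other main survival protein of epithelial cells, had a value of -0.24 on the probe set used, but 3 of its other probe sets fell, 1 of them bright (-0.98 at a mean of 9.34). BAX had a value of -0.08.

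The death ligand TNFSF10, which encodes TRAIL, measured 3.0, 3.04 and 3.45 in DMSO and 10.13, 10.31 and 10.28 in erlotinib, while 3 of its receptors fell. TNFRSF10A, a TRAIL receptor that signals death, measured 8.7, 8.65 and 8.56 in DMSO and 5.61, 5.62 and 5.62 in erlotinib (-3.02 ± 0.069, adjusted p = 1.45e-11). TNFRSF10B, the other death-signalling receptor, fell (-1.34 ± 0.073), as did the decoy TNFRSF10D (-1.97 ± 0.063). FAS and FADD, the adaptor of these receptors, fell as well (-0.79 and -0.73). In all, 4 of 16 genes of this group rose and 5 fell. With arrays centred on their medians 2 rose, as BIRC2 (0.50) and TNFRSF1A (0.46) no longer passed. CASP8 and CFLAR, the caspase and its inhibitor at the receptors, had values of -0.3 and -0.11, but 3 other probe sets of CFLAR rose (0.63, 0.89 and 1.91), so its direction is not settled.

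**Figure D4:**
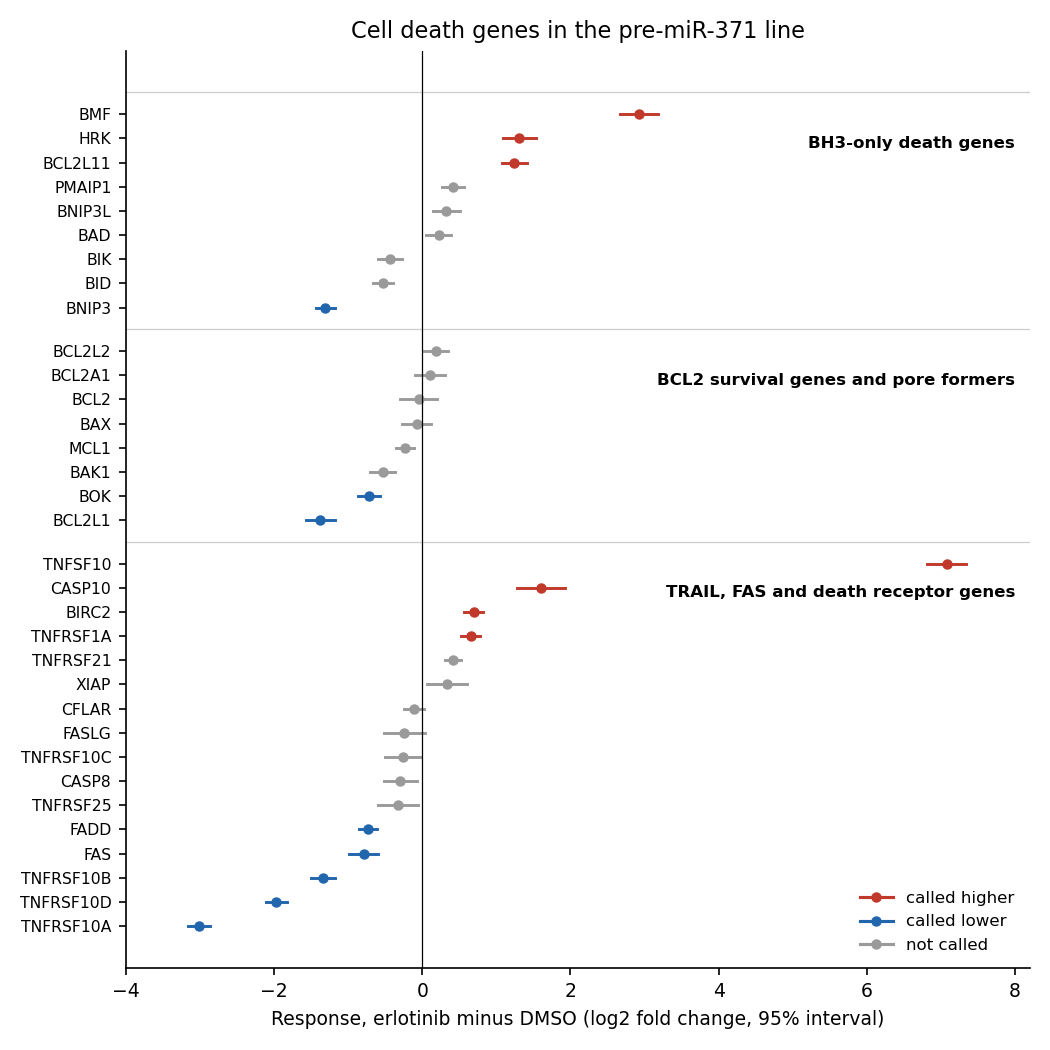
Response (log2 fold change, erlotinib minus DMSO, with its 95% interval from limma) of 9 BH3-only genes, 8 BCL2 survival and pore genes and 16 TRAIL and death receptor genes in the pre-miR-371 line. TNFSF10 lies furthest to the right and its receptor TNFRSF10A furthest to the left; genes in grey did not pass.

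Of 32 genes known to respond to interferon, 20 rose and 1 fell (ISG20, -0.81), with a median of 0.91. Only 16 members had a mean of at least 6 in DMSO or erlotinib, and 12 of the rises were among them. PARP9, a partner of the ubiquitin ligase DTX3L, rose from 5.89 to 8.39 (2.51 ± 0.095, adjusted p = 7.6e-10), and DTX3L rose by 1.57. The other probe set of PARP9, at a mean of 6.03, had a value of 0.57 and did not pass. IFI6 (1.87), IFIT1 (1.84), IFITM1 (1.6) and IFITM3 (1.6) rose, as did the sensors of viral RNA RIGI (0.83) and IFIH1 (0.99). A group of members common in viral responses stayed near 3 on the log2 scale in both treatments, namely RSAD2 (3.13 to 3.03), IFI27 (2.91 to 2.82), XAF1 (2.87 to 2.84) and IFI44L (2.53 to 2.68).

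Of 19 genes of antigen presentation on MHC class I, 18 rose and 1 fell (median 1.23, against 12.6% of all genes rising). PSMB9, an immunoproteasome subunit, measured 5.69, 5.74 and 5.45 in DMSO and 8.45, 8.27 and 8.06 in erlotinib (2.63 ± 0.11, adjusted p = 1.51e-09). TAPBP and TAPBPL, which edit the bound peptides, rose by 1.68 and 2.04, ERAP2, which trims them, by 1.57, and NLRC5, the activator of class I genes, by 1.56. HLA-B, HLA-C and HLA-E rose by 1.23, 1.1 and 1.34, and since these genes are close in sequence their probe sets may share signal. B2M, the common light chain, rose from 12.42 to 13.2. TAP2, a subunit of the peptide transporter, fell from 8.31 to 7.6 (-0.71 ± 0.065, adjusted p = 1.41e-06), and was at -0.55 where its probe sets were averaged, which did not pass, while its partner TAP1 rose by 0.73.

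The interferon-stimulated response element, read as GAAA, 2 bases of any kind and GAAA, was found in 14 of 25 promoters of the interferon genes (56%) and in 8 of 16 of the class I genes (50%), against 2.94% of the 15384 promoters. Among changed members it was in 11 of 17 and in 8 of 16. Both lists were drawn up by known function, so these shares describe the lists and not the response. IFI6, a mitochondrial protein induced by interferon, has 3 matches (chr1:27672143-27672442, minus strand), and TAPBP has 2 that overlap from position -20 (chr6:33314029-33314328, minus strand). Both promoters are shown with the matches in capitals.
IFI6: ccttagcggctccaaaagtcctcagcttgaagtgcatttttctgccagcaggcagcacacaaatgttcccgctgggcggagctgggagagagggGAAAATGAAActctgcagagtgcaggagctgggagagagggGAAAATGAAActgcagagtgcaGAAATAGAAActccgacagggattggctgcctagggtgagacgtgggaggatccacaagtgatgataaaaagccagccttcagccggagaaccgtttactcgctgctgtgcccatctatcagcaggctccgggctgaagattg
TAPBP: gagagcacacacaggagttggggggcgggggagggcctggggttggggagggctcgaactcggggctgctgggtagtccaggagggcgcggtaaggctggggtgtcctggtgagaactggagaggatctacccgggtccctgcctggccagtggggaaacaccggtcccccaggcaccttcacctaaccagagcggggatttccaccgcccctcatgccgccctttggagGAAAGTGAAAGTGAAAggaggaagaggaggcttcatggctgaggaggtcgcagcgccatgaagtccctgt

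**Figure D5:**
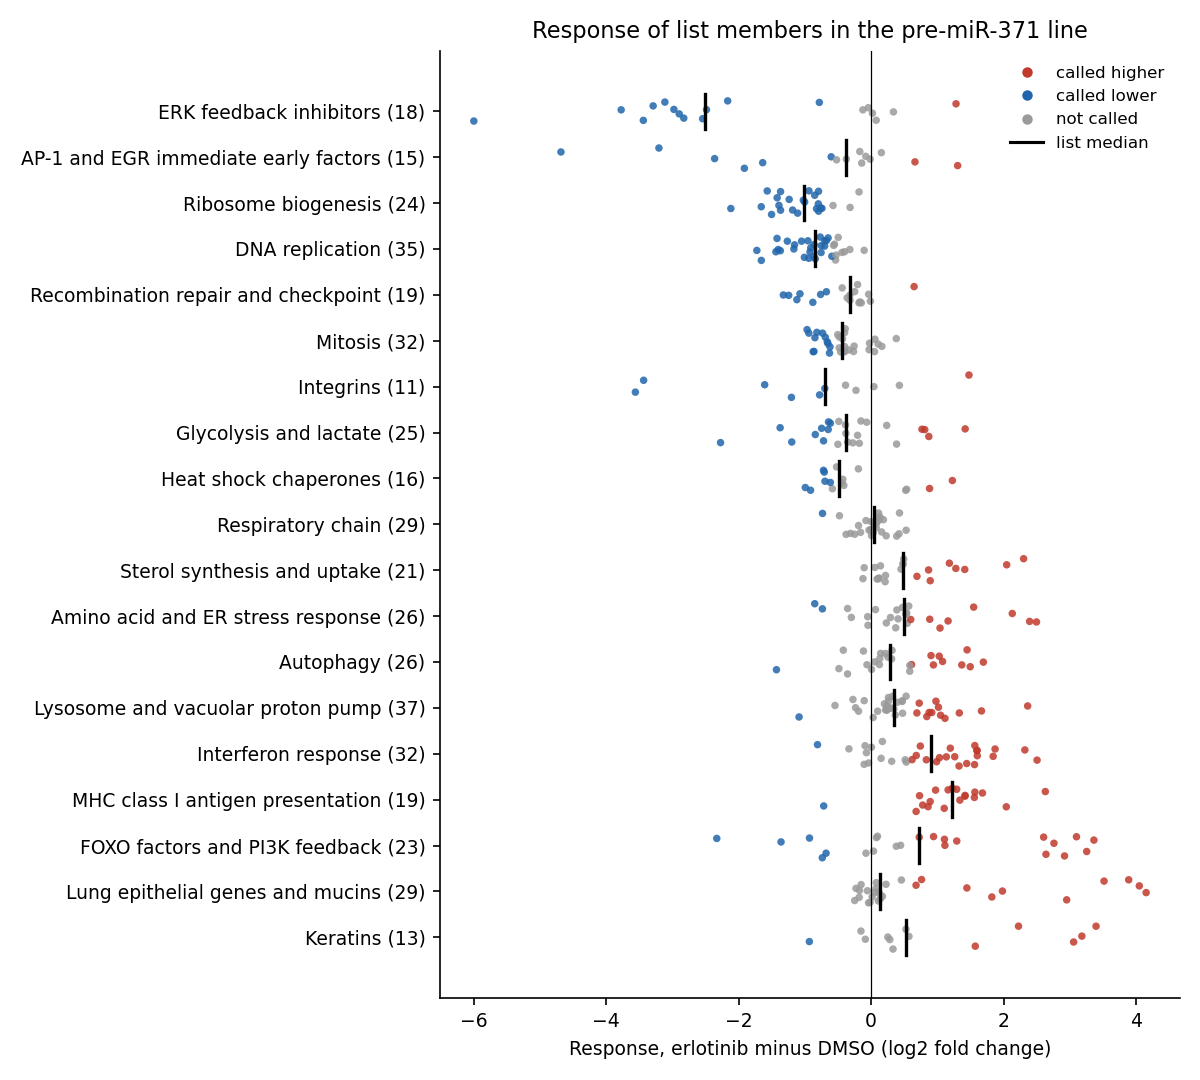
Response (log2 fold change, erlotinib minus DMSO) of the members of 19 gene lists in the pre-miR-371 line, each point 1 gene, with the list median as a bar and the number of members in brackets. The medians of ERK feedback and ribosome biogenesis lie to the left of 0, those of class I and interferon genes to the right, and that of the respiratory chain close to 0.

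Of 21 genes of sterol synthesis and uptake, 8 rose and none fell (median 0.48), including TM7SF2 (2.05), MSMO1 (1.42), SC5D (1.28) and HMGCS1 (1.18), enzymes along the route from acetyl-CoA to cholesterol. SQLE, the squalene epoxidase, had a value of 0.49 and FDPS of 0.22, neither past the fold limit. The sterol regulatory element TCACNCCAC was in 1 of 20 of their promoters (5%), against 1.09%. In fatty acid synthesis 4 of 15 fell, among them the elongase ELOVL6 (-1.27), and 1 rose, the desaturase SCD5 (1.81), which was at 0.50 with its probe sets averaged. Of 25 glycolysis genes, 9 fell and 4 rose (median -0.38). PDK1, which shuts pyruvate dehydrogenase, measured 9.51, 9.65 and 9.59 in DMSO and 7.21, 7.41 and 7.31 in erlotinib (-2.27 ± 0.07, adjusted p = 1.38e-10), while PDK2 (0.77) and PDK3 (0.81) of the same family rose, and with probe sets averaged 2 genes of this list rose. HK2, hexokinase, fell by 1.2, and LDHA and GAPDH had values of -0.35 and -0.28. Of 29 genes of the respiratory chain, 1 fell (CYCS, cytochrome c, -0.73) and none rose (median 0.05).

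Of 37 genes of the lysosome and its proton pump, 12 rose and 1 fell (median 0.34), beside 12.6% and 9.33% of all genes. CTSH, a cathepsin protease, measured 9.45, 9.43 and 9.37 in DMSO and 11.78, 11.85 and 11.71 in erlotinib (2.36 ± 0.059, adjusted p = 2.86e-11), and ASAH1 (1.67), TPP1 (1.33) and LAMP2 (1.12) rose. MITF, a factor that can drive such genes, fell from 6.61 to 5.52, and its relatives TFEB and TFE3 had values of 0.24 and 0.32. The element TCACGTGA that this factor family binds, which holds the E-box CACGTG within it, was in 5 of 26 of these promoters (19.2%), against 1.45%, but in only 1 of the 9 of changed members. Of 26 autophagy genes, 9 rose, WIPI1 (1.7), GABARAPL1 (1.5), NBR1 (1.45), ULK1 (1.37) and GABARAP (1.08) among them, and ATG16L1 fell (-1.43). In the response to amino acid shortage and ER stress, 8 of 26 rose and 2 fell. HERPUD1, which helps clear misfolded ER proteins, rose by 2.5 ± 0.065, ASNS, asparagine synthetase, by 2.39 ± 0.10 and XBP1 by 1.55 ± 0.079. DDIT3, the stress factor CHOP, had a value of 0.57 and ATF4 of 0.39, neither past the fold limit, which DDIT3 passed when 1 of 3 single arrays was left out (0.62 to 0.71). Among 16 heat shock chaperones 6 fell, led by STIP1 (-0.99), HSPA4 (-0.91) and HSPA9 (-0.72), and 2 rose, DNAJB4 (1.23) and HSPB8 (0.88), and 11 fell with arrays centred on their medians.

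Of 29 lung epithelial genes and mucins, 10 rose and none fell. MUC20, a membrane mucin, measured 6.02, 6.07 and 6.07 in DMSO and 10.07, 9.95 and 9.81 in erlotinib (3.89 ± 0.076, adjusted p = 6.75e-12). SCGB1A1, the secretoglobin of airway club cells, measured 4.8, 4.83 and 4.93 in DMSO and 8.39, 8.44 and 8.29 in erlotinib (3.52 ± 0.08, adjusted p = 1.45e-11). MUC16 and MUC4 rose by 2.95 and 1.98, but the alveolar genes NKX2-1, SFTPC and NAPSA had values of 0.08, -0.02 and -0.15. Of 13 keratins, 5 rose and 1 fell. KRT15, a keratin of basal cells, measured 8.11, 8.03 and 8.04 in DMSO and 11.49, 11.47 and 11.4 in erlotinib (3.4 ± 0.059, adjusted p = 3.61e-12), and KRT4 (3.18), KRT16 (3.06) and KRT13 (2.23) rose. The simple epithelial keratins KRT7, KRT8, KRT18 and KRT19 had values between -0.15 and 0.57 and did not pass. Keratins are alike in sequence, so their probe sets may share signal. Among junction genes the claudins CLDN3 (1.68) and CLDN4 (1.24), the scaffold TJP3 (1.86) and CGN (1.07) rose, 4 of 21, and CEACAM6 fell (-0.83). CDH1 and EPCAM had values of 0.16 and -0.23.

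Of the integrins, receptors that hold cells to matrix, 6 of 11 fell and 1 rose. ITGA6, a laminin receptor subunit, measured 11.31, 11.48 and 11.64 in DMSO and 7.83, 7.78 and 8.15 in erlotinib (-3.56 ± 0.12, adjusted p = 2.32e-10). ITGA2, a collagen receptor subunit, measured 10.46, 10.47 and 10.42 in DMSO and 7.07, 7.02 and 6.96 in erlotinib (-3.43 ± 0.081, adjusted p = 1.74e-11). ITGB5 and ITGA3 fell (-1.61 and -1.2), and ITGB8 rose by 1.48, a call lost with its probe sets averaged (0.43). ITGB1, the common beta subunit, had a value of -0.39 that did not pass, while 2 other bright probe sets of it fell (-0.77 and -0.70). Of 33 matrix, protease and mesenchymal genes, 7 fell, among them VIM (-1.5), PLAUR (-1.32) and LAMB3 (-1.28), and 4 rose, MMP7 (1.42), TIMP2 (1.13), FN1 (1.11) and COL4A1 (1.08). Falls were 21.2% of this list and rises 12.1%, beside 9.33% and 12.6% of all genes. ZEB1, ZEB2, SNAI1 and TWIST1, factors of the mesenchymal state, were between 3.14 and 5.21 in DMSO and none passed.

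Developmental regulators and cytokines moved in both directions. NOG, which encodes the BMP antagonist noggin, measured 9.83, 10.0 and 9.99 in DMSO and 6.16, 6.01 and 6.3 in erlotinib (-3.79 ± 0.11, adjusted p = 9.25e-11). DKK1 and ZNRF3, inhibitors of WNT signalling, fell (-2.04 and -1.13), while WNT11 (2.19), BAMBI (2.1) and AXIN2 (2.03, 0.49 with its probe sets averaged) rose. ID1 fell by 0.8 and ID3, of the same family of BMP targets, rose by 1.39. Of 28 genes of this group, 6 rose and 5 fell. Among 13 SOX factors 3 rose and 3 fell, with SOX4 at 1.44 and SOX9 at -1.01 beside SOX2 (5.04 to 10.99). Of 26 chemokines and interleukins, 4 fell, including LIF (-2.14) and IL6R (-1.18), and 2 rose, the interferon-induced CXCL10 (3.64 to 4.58) and CXCL11 (2.6 to 4.54). Falls were 15.4% of this list and rises 7.69%, beside 9.33% and 12.6% of all genes.

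Genes linked to drug tolerance and chromatin included 7 of 26 that rose (26.9%, beside 12.6% of all genes) and 4 that fell (15.4%, beside 9.33%). KDM5B and KDM7A, histone demethylases, rose (1.02 and 1.18), and KDM5A, which the drug-tolerant state is known to need, had a value of 0.52 that did not pass the fold limit, while 2 of its other probe sets rose (0.75 and 0.70). ALDH3A1, an aldehyde dehydrogenase, rose by 2.08 ± 0.072 and HDAC5 by 1.47 ± 0.15. CD44, EZH2, TET3 and HDAC9 fell (-1.09, -0.76, -1.0 and -1.18), and HDAC9 was at -0.36 with its probe sets averaged. The other probe sets of CD44 with a mean of at least 6 fell further (-1.73 to -2.07). Of 27 genes of peroxide defence, glutathione and NRF2, 7 rose and 1 fell. GSTA4, a glutathione transferase for lipid aldehydes, rose from 4.19 to 7.03, and GPX2 (1.66), CAT (1.61) and HMOX1 (0.99) rose. SRXN1, which repairs peroxiredoxins, fell (-0.77). NQO1 and TXNRD1, usual NRF2 targets, had values of 0.37 and -0.07, and another probe set of NQO1 rose (0.65).

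Among 26 phospholipases and protein kinase C isoforms, 9 rose and 1 fell. PLCB1 (2.23), PLD1 (2.14) and PLA2G4A (1.7), enzymes that cut membrane phospholipids, rose, as did the kinase PRKCD (1.3), whereas PRKCA had a value of 0.37 that did not pass and another of its probe sets fell (-0.88). PLCB4 fell. It measured 7.01, 6.93 and 7.26 in DMSO and 6.37, 6.17 and 6.36 in erlotinib (-0.77 ± 0.13, adjusted p = 0.000298), and its other probe set fell as well (-0.61). STX12, a syntaxin of endosomes, measured 7.83, 7.95 and 7.84 in DMSO and 8.27, 8.33 and 8.33 in erlotinib, a change that did not reach the fold limit (0.43 ± 0.062, adjusted p = 7.84e-05), while its other probe set rose by 0.67. PRDX6, a peroxiredoxin with phospholipase activity, measured 12.41, 12.39 and 12.38 in DMSO and 12.31, 12.32 and 12.24 in erlotinib (-0.1 ± 0.048, adjusted p = 0.105).

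Those 3 genes belong to 34 measured genes from a list of predicted miR-371-3p targets that the study drew up, of which 7 rose and 5 fell (median -0.06), against 12.6% and 9.33% of all genes. UHRF1, COLGALT1, SRXN1, SLC37A2 and PLCB4 fell, by values from -1.44 to -0.77. LOXL4 (2.22), WDR19 (1.98), ZBTB20 (1.61), HMOX1, GDE1, ZKSCAN8 and FGFR1 rose. With arrays centred on their medians 8 fell. The response to erlotinib compares cells that all carry the precursor, so it does not measure what the precursor does. In the machinery that makes and uses microRNAs, 2 of 15 fell and 2 rose, shares close to those of all genes. AGO2, the slicing Argonaute, measured 7.77, 7.83 and 7.86 in DMSO and 6.09, 6.02 and 6.06 in erlotinib (-1.76 ± 0.07, adjusted p = 1.05e-09), and XPO5, which exports precursor hairpins from the nucleus, fell by 1.14. AGO4 rose by 1.59 and TNRC6B by 0.84, while DICER1 and DROSHA had values of -0.3 and -0.19.

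Set beside the GFP vector line, no gene rose in 1 line and fell in the other. The difference of responses passed both limits with a positive sign for 102 genes (0.516%) and with a negative sign for 56 (0.283%). Of the 1845 genes that fell in the pre-miR-371 line, 149 had a less negative response than in the GFP vector line at an adjusted p under 0.05 and 9 a more negative one. Of the 2483 that rose, 71 had a smaller rise and 13 a larger one. These counts use the pre-miR-371 arrays on both sides and are a description. No member differed between the lines in the lists of ERK feedback, ETS factors, the EGFR family, ribosome biogenesis, BH3-only genes, BCL2 genes, sterol synthesis or integrins. The median standard error of a difference was 0.128, so small differences would not have passed. AOC1, a diamine oxidase, measured 4.18, 4.36 and 4.23 in DMSO and 6.66, 6.39 and 6.8 in erlotinib, with means of 3.63 and 3.98 in the GFP vector line, a difference of 2.01 ± 0.15, adjusted p = 0.000556. The mucin MUC20, the class I gene TAPBPL and the interferon gene IFIT2 rose less than in the GFP vector line, with differences of -0.79, -0.61 and -0.9. They do not stand for their lists. The difference was negative at an adjusted p under 0.05 for 1 of 29 lung epithelial genes and mucins, 1 of 19 class I genes and 1 of 32 interferon genes. The median differences of these lists were -0.088, -0.154 and -0.133.

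Of 8 endothelial markers 1 rose, PECAM1 (from 7.88 to 8.91), and the summed linear level of the list was 413.0 to 420.9 in DMSO and 651.3 to 685.0 in erlotinib, while CDH5 and VWF, which define endothelium, were at 5.09 and 5.19 under the drug and did not pass. Of the 7 leukocyte markers LYZ (from 3.65 to 4.91) and ITGAM (from 4.68 to 5.96) rose, and their list summed to 107.6 to 125.2 and 160.2 to 184.9. The fibroblast list summed to 257.3 to 277.7 in DMSO and 258.8 to 267.5 in erlotinib. The part of these markers in the results above was not tested.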

How the data were processed

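RNA of 12 samples was read on Affymetrix Hgu133plus2 arrays. The deposited log2 values had been summarised and normalized by the authors, with RMA and affy named in the submitters' processing notes and quantile normalization in the study's methods. Their versions were not stated in the sources used. A normalization that equalises arrays can hide a shift shared by most genes. Of 54675 probe sets, 41091 had 1 gene symbol in the platform annotation, 1801 several and 11721 none, and 62 were controls. Symbols were updated or kept through Entrez ID for 19735 of 19775 genes. Each gene was represented by its probe set of highest mean value across the 12 arrays.

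limma 3.58.1 in R 4.3.3 fitted 1 mean per group on all 12 arrays, with Benjamini-Hochberg adjustment over the 19775 genes and an interaction term for the difference of the responses. Every adjusted p in the text is from this limma fit, which was tested on simulated data. Tables and plots used Python 3.11.15, pandas 2.3.3 and matplotlib 3.10.9. The number of arrays limits the precision, with a median standard error of 0.091 for a fold change. The members and the gene lists were chosen with earlier results of these data known, and the list of predicted targets was the study's own. Named genes were the 15 largest rises and 15 largest falls among called genes whose DMSO and erlotinib arrays did not overlap. Their brighter group had a mean of at least 6. From each list came up to 6 called members with the largest change, up to 4 against the main direction and up to 4 bright members not called. The 8 largest differences in each direction were taken among called differences with a mean of at least 6 in the brightest of the 4 groups. The called predicted targets with PRDX6, PLCB4 and STX12 were added. A further 39 genes, among them EGFR, PTPRC, CDKN1A, HLA-B, B2M, ZEB1 and KDM5A, were chosen after their values were seen. Promoter and microRNA sequences are from RefSeq. Alternatives were another probe set rule, filter, scaling, variance model and fold limit, a replicate block and leaving out each array.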

Additional observations from a re-analysis of the deposited data

Results flagged for a closer look

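The responses of the lines to erlotinib differed, by the interaction term of the limma model, for 102 genes with a positive and 56 with a negative difference (pre-miR-371 minus GFP vector, log2). AOC1, a diamine oxidase, went from a mean of 4.25 to 6.62 in the pre-miR-371 line and from 3.63 to 3.98 in the GFP vector line, a difference of 2.01 ± 0.15 (adjusted p = 0.000556). EGR1, an immediate early factor, went from a mean of 7.49 to 4.28 in the pre-miR-371 line and from 8.26 to 3.92 in the GFP vector line, a difference of 1.14 ± 0.14 (adjusted p = 0.00615). MYBL1, a MYB family factor, went from a mean of 7.09 to 6.02 in the pre-miR-371 line and from 7.28 to 5.11 in the GFP vector line, a difference of 1.11 ± 0.14 (adjusted p = 0.00624). E2F7, an E2F family repressor, went from a mean of 7.41 to 6.59 in the pre-miR-371 line and from 7.66 to 5.81 in the GFP vector line, a difference of 1.04 ± 0.13 (adjusted p = 0.00624). NOG, the BMP antagonist noggin, went from a mean of 9.94 to 6.15 in the pre-miR-371 line and from 9.82 to 5.08 in the GFP vector line, a difference of 0.96 ± 0.15 (adjusted p = 0.00993). The remaining genes among the 8 largest positive differences were CCNE2 (cyclin E2, 0.94), ESCO2 (an acetyltransferase for cohesin, 0.92) and BMP2K (a kinase of clathrin-coated vesicles, 0.91).

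The 8 largest differences in each direction were taken among genes with a mean of at least 6 in the brightest of the 4 groups. KCNJ13 and TRIM31 reached that mean only in the GFP vector line under erlotinib. AOC1 reached it only in the pre-miR-371 line under erlotinib. The 8 largest negative differences so chosen were of genes with a smaller rise in the pre-miR-371 line. ALPG, an alkaline phosphatase close in sequence to ALPP, went from a mean of 4.98 to 6.86 in the pre-miR-371 line and from 4.66 to 8.05 in the GFP vector line, a difference of -1.52 ± 0.13 (adjusted p = 0.000652). KCNJ13, a potassium channel, went from a mean of 3.82 to 4.96 in the pre-miR-371 line and from 3.47 to 6.03 in the GFP vector line, a difference of -1.41 ± 0.18 (adjusted p = 0.00615). PLAAT4, a phospholipase and acyltransferase, went from a mean of 4.31 to 6.10 in the pre-miR-371 line and from 4.14 to 7.26 in the GFP vector line, a difference of -1.34 ± 0.23 (adjusted p = 0.0128). TRIM31, a ubiquitin ligase, went from a mean of 4.29 to 5.90 in the pre-miR-371 line and from 4.34 to 7.25 in the GFP vector line, a difference of -1.30 ± 0.29 (adjusted p = 0.0477), which no longer passed with the replicate block (adjusted p = 0.082) or in 10 of the 12 fits that left out 1 array. The others were HPGD (which breaks down prostaglandins, -1.28), ATP6V1B1 (a proton pump subunit, -1.09), ADH1C (an alcohol dehydrogenase, -1.09) and PCLO (a protein of the presynapse, -0.996). The genes were picked for the size of the difference, and no cause was tested. With all probe sets of a gene averaged, the differences of MYBL1 (0.31), E2F7 (0.47), ESCO2 (0.34), BMP2K (0.29), ATP6V1B1 (-0.48) and PCLO (-0.41) no longer passed.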

How the results depend on the processing

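Leaving aside fits without 1 GFP vector array, which cannot move a fold change within the pre-miR-371 line, 6766 of 6912 recomputed gene values kept their direction and side of the threshold, 85 lost the call, 61 gained it and none reversed, and of 1344 list counts 1216 stayed within 1.5 times. With no fold limit 4903 genes rose, 4383 fell and 284 and 111 differed between the lines with a positive and a negative sign, and with a fold over 2 these counts were 1184, 755, 5 and 8. With arrays centred on their medians 2789 fell. Negative differences numbered 37 among the 9650 genes with a mean of at least 6, 105 with a trended robust prior and 130 with array weights. Leaving out 1 array gave 2458 to 2538 rises, 1809 to 1890 falls, 74 to 126 positive and 35 to 65 negative differences, the 35 without pre-miR-371 DMSO replicate 1. The replicate block gave 2482, 1845, 100 and 54. Same-numbered arrays of different groups correlated from -0.0568 to 0.1979 in their deviations, and other-numbered arrays from -0.2026 to 0.1078. Between DMSO and erlotinib in the pre-miR-371 line, same-numbered arrays correlated from 0.0498 to 0.1354 and other-numbered ones from -0.1383 to 0.0267. Whether the numbers pair the arrays was not tested. With all probe sets of a gene averaged, 1852 rose and 1504 fell, and the calls of EGFR (-0.44), ERBB2 (0.50), BCL2L11 (0.52), FAS (-0.58), BOK (-0.48), IFIH1 (0.39), CYCS (-0.54), ITGB8 (0.43), HSPB8 (0.33), TRIB1 (-0.41), PDK2 (0.53), PDK3 (0.14), TNRC6B (0.56), ZKSCAN8 (0.18), FGFR1 (0.28), PECAM1 (0.54) and ITGAM (0.58) were lost. Averaging also removed the call of KIF23 (-0.34). Centring removed, among others, the calls of TAP1 (0.54), IGFBP6 (0.46), PDK2 (0.58), ZKSCAN8 (0.56) and FOSL2 (0.47). Of 474 other probe sets of 205 called genes in the text or the lists, 252 gave the same call, 1 the opposite and 221 none, 20 of these with a mean of at least 6. Of the differences between lines, that of ATP6V1B1 was lost in 11 of the 12 fits that left out 1 array and that of TRIM31 in 10. Signal over background is not given, which limits what can be said of genes near the lower end of the scale.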
